A study of Mus musculus with 20 samples.

Results

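The genes described here carry the symbols of 3 families of ion channel subunits, Scn followed by a number, Kcn and Cacn, and were taken by symbol from the protein-coding rows of the RNA-seq tables. They comprised 136 of 39174 rows, of which 14 were sodium, 95 potassium and 27 calcium channel genes. The symbol Kcnb2 stood for 2 rows, and Cacng8 for 2 rows of which 1 was listed at 0 in every library. The rule is wider than the class of voltage-gated channels, since it also takes the inward rectifiers (Kcnj), the K2P leak channels (Kcnk), small-conductance calcium-activated channels (Kcnn), cytosolic and membrane partners such as the Kcnip, Kcnab and Kcne families, and the Cacng genes, several of which encode partners of AMPA receptors. They are therefore called channel genes below.

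Motoneurons of embryonic CD-1 mouse spinal cord, enriched by panning on an antibody to p75, had been grown in microfluidic chambers whose second compartment receives axons. Total RNA of the somatodendritic and of the axonal compartment had been amplified and sequenced. The control cultures had received an empty lentiviral vector, and the knockdown cultures a lentivirus with a short hairpin RNA against Tdp-43, the RNA-binding protein encoded by Tardbp. All groups were thus CD-1 cultures exposed to lentivirus, whose vectors also express GFP, and they comprised 4 somatodendritic control, 6 somatodendritic knockdown, 4 axonal control and 6 axonal knockdown libraries. The labels name no animals or cultures, so that the p-values below measure the spread between libraries, which may in part be technical. An empty vector does not control for the presence of a hairpin RNA. The study's methods state parallel processing of control and knockdown cultures, and also that the control datasets had been described in earlier work. The labels give no batch, so that a batch difference was not tested.

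Voltage-gated sodium channels open on depolarisation and carry the rising phase of the action potential, and in neurons they are clustered by ankyrin G at the axon initial segment and at nodes. Voltage-gated potassium channels repolarise the membrane, and calcium channels couple depolarisation to transmitter release, gene expression and pacemaking. Each channel is built from a pore-forming subunit and from auxiliary subunits that set its trafficking and gating. Tdp-43 is a mostly nuclear protein that binds RNA rich in repeats of U and G and that is lost from the nucleus of most affected motoneurons in amyotrophic lateral sclerosis, a disease in which the excitability of motoneurons is altered.

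Expression is given in FPKM, the number of sequenced fragments normalised to transcript length and to the depth of a library, as deposited unless called scaled. For tests the libraries of a comparison were scaled to each other by the median of ratios, and a log2 change is a difference of log2(scaled FPKM + 1), on which weakly expressed genes appear to move less than they do. The limma test took every gene whose mean in a comparison reached 1 FPKM, and a gene is called where its Benjamini-Hochberg adjusted p over all genes tested is under 0.05. The interval deposited with each FPKM value gives an implied number of fragments, which is a lower limit where a gene has several isoforms. Relative depth ranged from 0.104 in axonal knockdown library 5, with 29 channel genes above 0 FPKM, to 1 in somatodendritic control library 3, with 92.

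Several measures of the libraries bear on all results. Over 14062 genes, axonal knockdown libraries 3 and 4 correlated less with the mean of the other axonal libraries (r = 0.85 and 0.733) than with the mean of the somatodendritic libraries (r = 0.867 and 0.778), unlike the other 8 axonal libraries. For the comparisons that include them, the median over all channel genes tested is also given without them. Of the markers of motoneurons, Chat, Isl2 and Mnx1 were listed at 0 in all 20 libraries and Slc5a7 in 19. The highest values of Isl1, Prph and Lhx3 in any library were 8.03, 3.06 and 6.72 FPKM. In somatodendritic control libraries these 3 were at 0 to 3.79, 0 to 1.05 and 0 to 2.1 FPKM. Markers of other spinal neurons were present in those libraries, with Gad1 at 36.8 to 57.2 FPKM, Slc32a1 at 30.5 to 41.2 FPKM and Slc17a6 at 18.9 to 29.6 FPKM, as were glial and progenitor markers such as Slc1a3 at 70.3 to 109.5 FPKM. The labelled cell type could therefore not be checked by its defining markers, since a value listed at exactly 0 may also be a failed estimate. In such bulk RNA fewer cells of a type and less RNA per cell cannot be told apart. Tardbp was at 30.8, 19, 29.6 and 29.9 FPKM in somatodendritic control libraries 1 to 4, against 0 to 8.54 FPKM in the knockdown libraries (log2 change -3.06 ± 0.57 (SE), adjusted p = 0.0228 in limma). In axons it was at 32.3, 20.1, 32.3 and 13.4 FPKM in control and 33.2, 1.21, 4.97, 13.1, 14 and 11.5 FPKM in knockdown libraries 1 to 6 (log2 change -1.71 ± 0.63 (SE), adjusted p = 0.427). As deposited, the library labelled axonal knockdown 1 was thus above every axonal control library, and axonal knockdown library 5 was above axonal control library 4.

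Because Tdp-43 binds UG repeats, the longest uninterrupted TG repeat on the sense strand of each protein-coding transcript was looked up in GENCODE M21 on GRCm38. Runs of at least 6 units (TGTGTGTGTGTG) were found in 12 of 83 channel genes tested in the somatodendritic compartment, or 14.5%, and in 8.75% of all 11698 coding genes tested there. The exons of these channel genes had a median summed length of 5.58 kb, against 4.71 kb. Among the channel genes described below, 7 that hold such a run, taken by their level in control libraries, by a call or, for Cacna1c, by its difference under knockdown, are shown by 30 bases from 8 bases before its start, with the repeat in capitals, as DNA of the transcript strand, 5′ to 3′.

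Cacna1b: acaggatcTGTGTGTGTGTGTGTGTGTGTG
Cacna1c: tgtgtgtaTGTGTGTGTGTGTGtccatgac
Kcnc1: aaaattagTGTGTGTGTGTGTGTGTGTGTG
Kcnj10: tgtactgcTGTGTGTGTGTGTGTGTGTGTG
Kcnk9: catgtaacTGTGTGTGTGTGTGTGTGTGtt
Scn3b: tgcaagcaTGTGTGTGTGTGcgcgcacatg
Scn8a: cacatgtaTGTGTGTGTGTGTGTGaagaat

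All 7 windows lay in the last exon, in the 3′ UTR. The window of Cacna1c, a pore subunit of L-type calcium channels, was chr6:118590544-118590573 on the minus strand, in exon 47 of 47 of Cacna1c-207, with a run of 7 units. Those of Cacna1b (chr2:24605017-24605046, minus strand, 22 units) and Kcnk9 (chr15:72502824-72502853, minus strand, 10 units) were on the same strand. On the plus strand were Kcnj10 (chr1:172372151-172372180, 23 units), Kcnc1 (chr7:46438511-46438540, 21 units), Scn8a (chr15:101045280-101045309, 8 units) and Scn3b (chr9:40291509-40291538, 6 units). The longest runs, in Kcnj10, Cacna1b and Kcnc1, extend beyond the bases shown. A run of these letters is a description of the transcript, and binding was not analysed here.

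Channel RNA was detected in both compartments at low to moderate levels. A mean of at least 1 FPKM was reached by 77 of the 136 genes in somatodendritic control, 81 in somatodendritic knockdown, 61 in axonal control and 72 in axonal knockdown libraries, while 21 were listed at 0 in all 20 libraries. Depth also differed between libraries, and its part in these numbers was not tested. Summed over all 136 genes, FPKM was 835 to 952 in somatodendritic control and 341 to 499 in axonal control libraries, with no overlap. It was 865 to 1139 in somatodendritic knockdown libraries and 422, 529, 1019.8, 785, 358 and 534 in axonal knockdown libraries 1 to 6, of which libraries 3 and 4 were the highest. With scaling over all 20 libraries the somatodendritic sums were 759 to 887 in knockdown and 785 to 888 in control libraries. The axonal sums were then 342 to 776 in knockdown and 482 to 654 in control libraries.

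The 3 ion classes had the same order of compartments in control libraries. The sodium channel genes summed to 150.2, 109.9, 133 and 93.1 FPKM in somatodendritic control libraries 1 to 4 and to 59.4, 27.9, 50.6 and 48.9 FPKM in axonal control libraries. The calcium channel genes summed to 323, 363, 432 and 392 FPKM in somatodendritic and 135, 136, 129 and 214 FPKM in axonal control libraries. The potassium channel genes summed to 362 to 427 and 161 to 236 FPKM. In no class did the somatodendritic and axonal control libraries overlap. With scaling over all 20 libraries the gap narrowed, to 82.8 to 141 against 38.3 to 84.9 for sodium, 348 to 402 against 242 to 309 for potassium and 304 to 402 against 186 to 281 for calcium channel genes, and the sodium sums then overlapped.

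**Figure D1:**
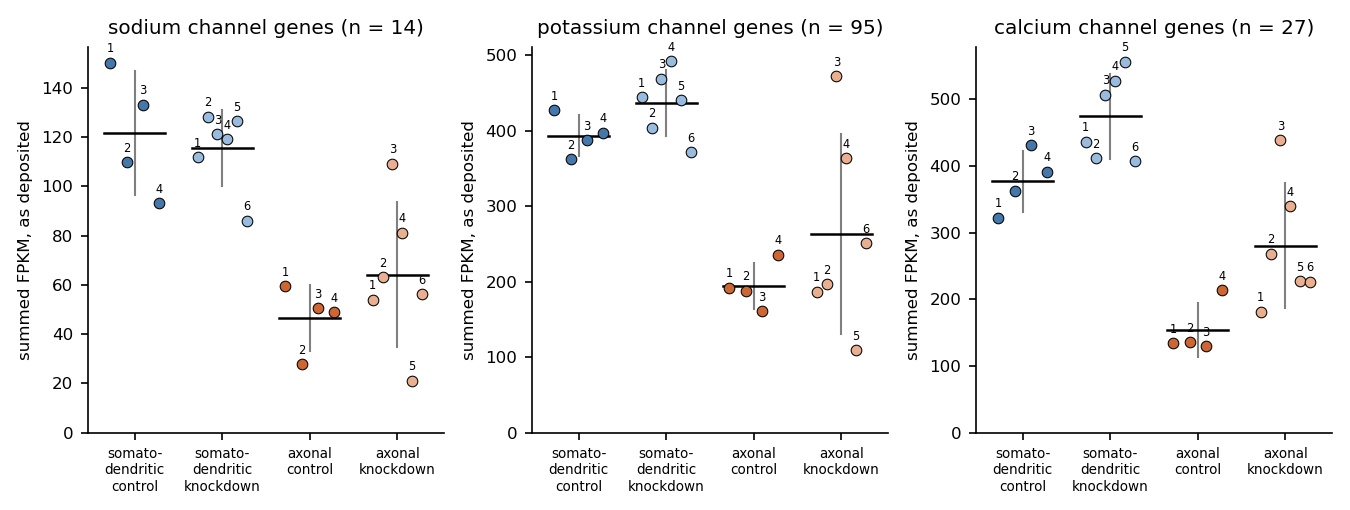
Summed FPKM as deposited of the sodium, potassium and calcium channel genes in each library, with library numbers, the group mean (horizontal line) and 1 SD (vertical line). The 4 axonal control libraries lie below the 4 somatodendritic control libraries in each class, and axonal knockdown libraries 3 and 4 stand above the other axonal knockdown libraries.

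The first comparison asked which channel RNAs differ between axons and the somatodendritic compartment of control cultures. Most had a log2 change below 0, and the RNAs called lower in axons included Scn2a1, a pore subunit of neuronal sodium channels, the partners of Kv4 channels Kcnip1 and Kcnip4, and Cacng2 and Cacng3, partners of AMPA receptors. Of 74 channel genes tested, 8 were called lower and 1 was called higher in axons, against 2.97% and 3.93% of the 13760 genes tested. At an unadjusted limma p under 0.05 there were 26 lower and 1 higher, against 11.8% and 11.1% of all genes. The 4 axonal and 4 somatodendritic libraries did not overlap in 20 channel genes that were lower and 1 that was higher in axons, against 8.54% and 7.66% of all genes. The median log2 change was -0.83 over the channel genes and -0.06 over all genes tested. Below 0 were 64 of 74 channel genes, against 53% of all genes tested.

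The number of calls moved when a control replicate was left out, which takes away its axonal and its somatodendritic library and leaves 3 against 3. Without control replicate 1, 2, 3 or 4, limma gave 0, 1, 3 and 9 called channel genes. The calls without replicate 4 are not the same genes, as Cacnb1 and Kcnj10 were lost there. With FPKM as deposited 25 were called, 24 of them lower, and the median of all genes tested was -0.48. The median of the channel genes stayed below that of all genes in every alternative run for this comparison.

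Among the sodium channel pore genes, Scn2a1 (chr2:65620771-65767447) was at 39.5, 29.1, 25.9 and 22.3 FPKM in somatodendritic control libraries 1 to 4, against 6.02, 3.99, 3.94 and 6.02 FPKM in axonal control libraries. Every axonal library was below every somatodendritic library. The scaled axonal mean was 24.5% of the somatodendritic mean (log2 change -1.84 ± 0.31 (SE), adjusted p = 0.00658 in limma). Without control replicate 1 or 2 the adjusted p was 0.0599 or 0.0663. The axonal values had 0.342 to 1.04 implied fragments, and the somatodendritic values 9.94 to 19.7. Where a gene has several isoforms these are lower limits.

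Scn8a, which encodes the main pore subunit of mature nodes of Ranvier, was at 13.2, 10.03, 12.9 and 8.18 FPKM in somatodendritic and 2.26, 3.84, 4.45 and 4.38 FPKM in axonal control libraries. The groups did not overlap, but the change did not pass the adjusted test (log2 change -0.91 ± 0.35 (SE), adjusted p = 0.152). Scn3a, a pore subunit prominent in the embryonic nervous system, was at 9.01, 8.4, 6.14 and 11.7 and 1.21, 1.18, 3.36 and 2.45 FPKM (log2 change -1.3 ± 0.41 (SE), adjusted p = 0.0831), again without overlap. The muscle subunit Scn4a and the sensory neuron subunit Scn10a were listed at 0 in all 20 libraries.

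The sodium channel beta subunits are single-pass proteins that modify gating and adhere to other cells. Scn3b was the most abundant channel gene of the sodium class, at 57.4, 49.6, 56.4 and 25.6 FPKM in somatodendritic and 24.7, 9.41, 13.8 and 12.9 FPKM in axonal control libraries. Its groups differed by a log2 change of -1.08 ± 0.36 (SE) and missed the adjusted threshold (adjusted p = 0.102). Scn4b did not exceed 0.886 FPKM in any library.

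**Figure D2:**
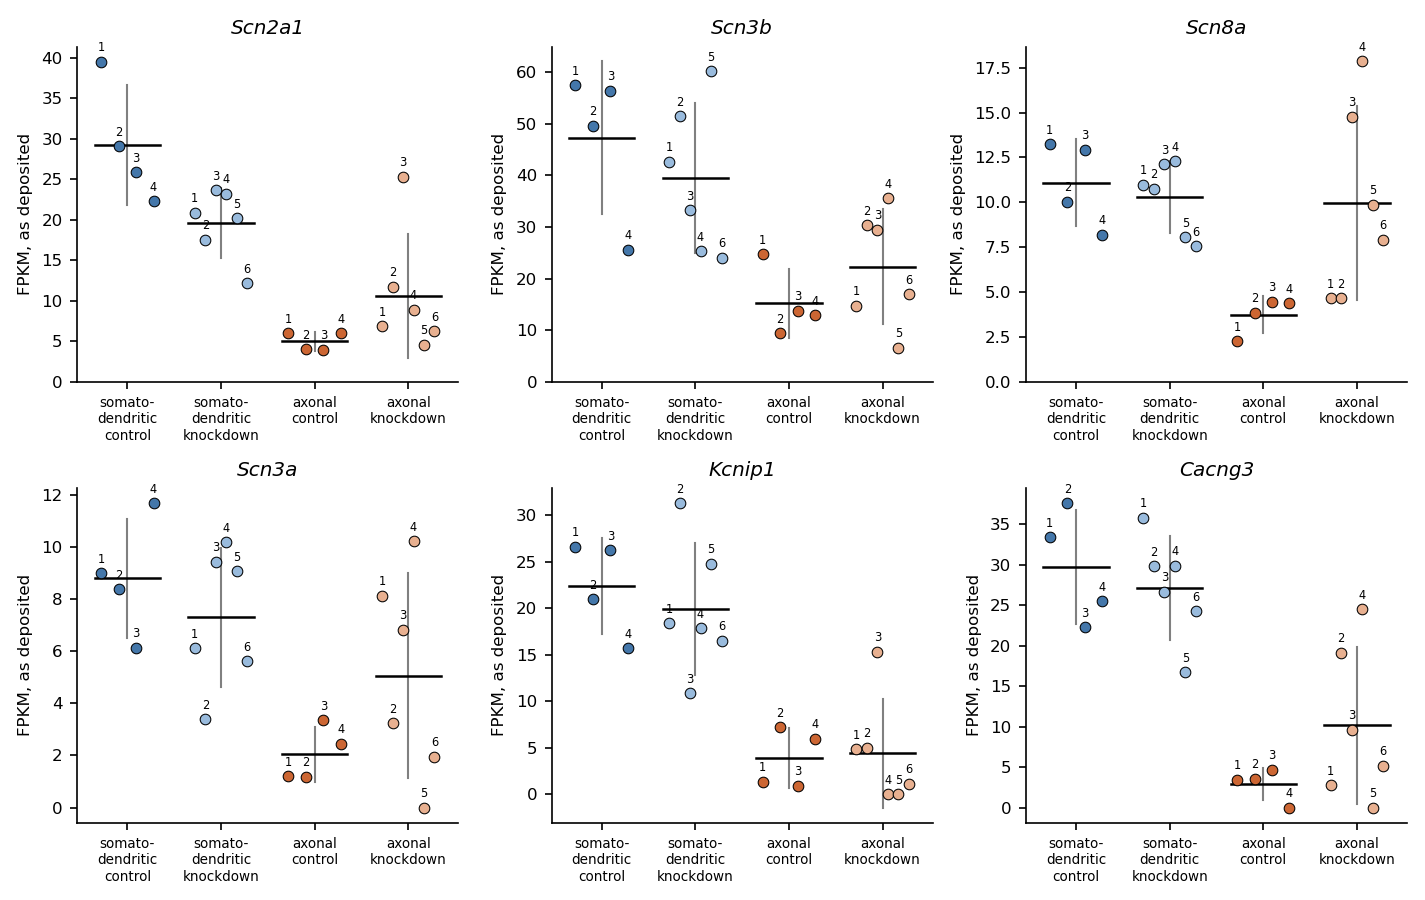
FPKM as deposited of Scn2a1, Scn3b, Scn8a, Scn3a, Kcnip1 and Cacng3 in every library, with library numbers, group means (horizontal lines) and 1 SD (vertical lines). In control libraries each gene shown is lower in axons without overlap as deposited, but the groups of Scn3b overlap after scaling.

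The potassium channel genes called lower in axons were 2 auxiliary subunits, an inward rectifier and a K2P channel, and no Kv pore gene. Kcnip1, a calcium-binding partner of Kv4 channels, was at 26.6, 21, 26.3 and 15.7 FPKM in somatodendritic and 1.32, 7.22, 0.884 and 5.98 FPKM in axonal control libraries (24.3% of the somatodendritic level after scaling, log2 change -2.09 ± 0.51 (SE), adjusted p = 0.0351 in limma). Kcnip4, of the same family, was at 8.01, 6.72, 6.59 and 8.51 FPKM in somatodendritic control libraries and, in axonal control libraries, at 1.09, 0, 0 and 0 FPKM (log2 change -2.52 ± 0.45 (SE), adjusted p = 0.00918). It was thus listed at 0 in 3 of 4 axonal libraries. Kcnd2, the pore gene that these proteins join, was at 12.4 to 19.7 FPKM in somatodendritic and 2.24, 2.45, 2.79 and 11.7 FPKM in axonal control libraries (log2 change -1.34 ± 0.46 (SE), adjusted p = 0.112), the axonal library 4 being the highest.

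Kcnk9, which encodes the acid-sensitive leak channel TASK-3, had the highest mean of all channel genes over the 8 control libraries. It was at 67.6, 52.5, 57.4 and 53 FPKM in somatodendritic and 24.8, 14.6, 13.6 and 26 FPKM in axonal control libraries, without overlap (49.3% after scaling, log2 change -1.04 ± 0.27 (SE), adjusted p = 0.0438). Kcnj10, the inward rectifier of astroglia, was at 4.12, 2.94, 5.39 and 12.5 and 0.426, 0.934, 0 and 0.484 FPKM (log2 change -1.88 ± 0.50 (SE), adjusted p = 0.0466). The call of Kcnj10 was kept in 2 of 13 alternatives. Of 8 astroglial and progenitor markers tested, 5 were below 0, 0 were called lower and 2 called higher. Gfap was at 0 to 5.22 FPKM in axonal and 7.71 to 11.5 FPKM in somatodendritic control libraries, and Aqp4 at 0 to 1.54 and 1.8 to 5.85 FPKM, and their part in the level of Kcnj10 was not tested.

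Of 20 Kv pore genes tested, 18 were below 0, with a median log2 change of -0.62 and 4 at an unadjusted p under 0.05. Kcnc1, a fast repolarising Kv3 subunit, was at 13.4 to 19 and 2.61 to 10.03 FPKM (log2 change -1.08 ± 0.41 (SE), adjusted p = 0.142). The sodium-activated channel gene Kcnt1 was at 19.2 to 23.1 and 0 to 14 FPKM, and Kcnmb4, a neuronal partner of BK channels, at 9.03 to 23.1 and 0 to 13.4 FPKM. Neither passed the adjusted test (adjusted p = 0.159 and 0.375).

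A few potassium channel genes were not lower in axons. Kcne1l, also called Kcne5, a small partner of Kv channels, was at 1.2, 4.41, 7.19 and 11.9 FPKM in somatodendritic and 46.3, 31.1, 1.33 and 8.48 FPKM in axonal control libraries, a wide spread that did not pass the test (log2 change 1.61 ± 0.86 (SE), adjusted p = 0.294). The mechanosensitive K2P genes Kcnk2 and Kcnk10, chosen after their values were seen, were at 2.71 to 7.68 and 5.46 to 16.2 FPKM in axonal and 3.62 to 8.6 and 4.48 to 11.6 FPKM in somatodendritic control libraries. Of 10 silent Kv subunits, which form no channel alone, 1 reached the filter of this comparison.

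All 21 calcium channel genes tested had a log2 change below 0, against 53% of all genes tested. Their median was -0.83, and 3 were called. Cacng3 was at 33.4, 37.6, 22.3 and 25.5 FPKM in somatodendritic and 3.44, 3.54, 4.65 and 0 FPKM in axonal control libraries (14.2% after scaling, log2 change -2.77 ± 0.56 (SE), adjusted p = 0.0155 in limma). Cacng2, or stargazin, was at 17.5, 19.3, 17.3 and 15.3 and 3.35, 4.58, 1.86 and 7.12 FPKM (34.7%, log2 change -1.45 ± 0.37 (SE), adjusted p = 0.0404). Both belong to the proteins that carry AMPA receptors to synapses, and neither is a pore.

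Cacnb1, a cytosolic beta subunit, was at 9.94, 15, 21.4 and 13 FPKM in somatodendritic and 4.04, 2.98, 3.73 and 3.29 FPKM in axonal control libraries (34.2%, log2 change -1.31 ± 0.34 (SE), adjusted p = 0.0428). Leaving out any 1 of the 4 control replicates lost this call. No pore gene of the class was called. The presynaptic pore genes were closer between compartments, Cacna1b (N-type) at 22, 22.5, 17.4 and 32.8 FPKM in somatodendritic and 19, 3.2, 10.04 and 33 FPKM in axonal control libraries (log2 change -0.36 ± 0.55 (SE), adjusted p = 0.744). Cacna1a (P/Q-type) was at 24.4, 17.9, 30.5 and 30.1 and 14.7, 2.6, 14.1 and 25.5 FPKM (log2 change -0.60 ± 0.54 (SE), adjusted p = 0.547). For both genes the groups overlapped.

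The low-threshold T-type pore genes varied widely in axons, with Cacna1g at 0.577, 16.9, 0.514 and 7.12 FPKM in axonal and 14 to 30.02 FPKM in somatodendritic control libraries. Cacna1h was at 4.74, 10.5, 6.64 and 24.9 and 12.6 to 35.6 FPKM. Cacna2d2, an extracellular alpha2delta subunit, was at 30.4, 54.8, 53 and 51.5 FPKM in somatodendritic and 27.2, 18.2, 25.8 and 21.7 FPKM in axonal control libraries (log2 change -0.47 ± 0.27 (SE), adjusted p = 0.323). Cacng7 and Cacng4 were among the highest of the class, at 44 to 67.3 and 38.9 to 60.6 FPKM in somatodendritic and 10.4 to 22.5 and 11.9 to 38.9 FPKM in axonal control libraries, and neither was called (adjusted p = 0.0538 and 0.189).

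**Figure D3:**
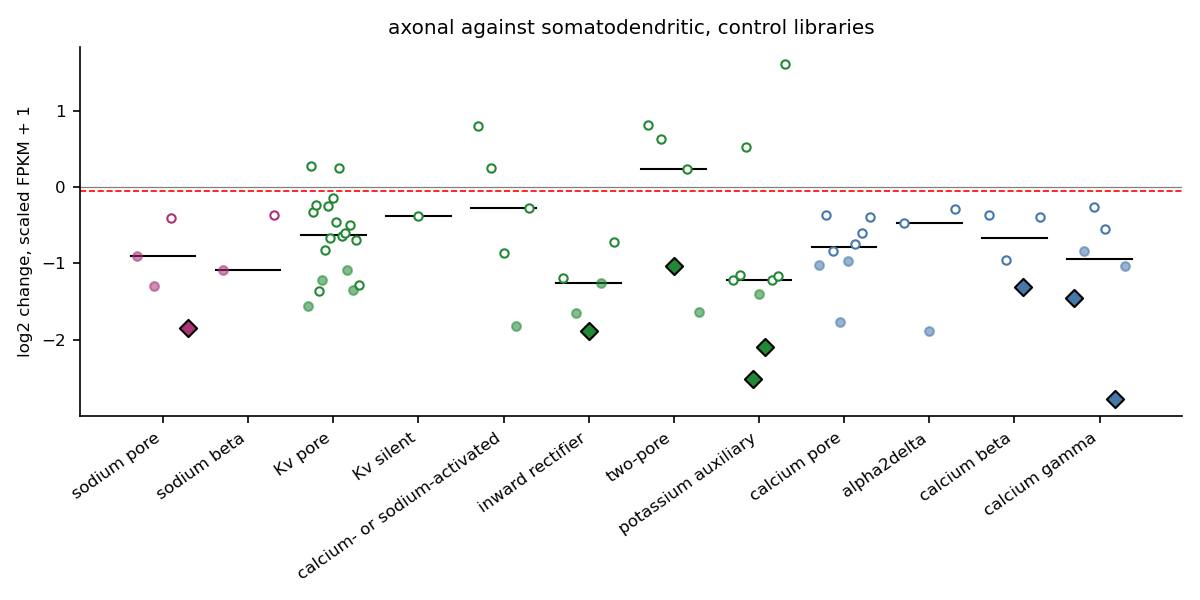
Log2 change of each tested channel gene between axonal and somatodendritic control libraries, by subgroup. Diamonds mark an adjusted p under 0.05 in limma, filled circles an unadjusted p under 0.05 and open circles the rest; black lines are subgroup medians and the dashed line is the median of all genes tested, -0.06. All calcium channel genes lie below 0, and the lowest, Cacng3, lies at -2.77. Medians are over all genes tested, and genes that are not reported have no point.

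Proteins that anchor, modulate or accompany these channels were measured from a list of 33 genes chosen apart from the channel symbols. Of 31 tested, 29 were below 0 in axonal against somatodendritic control libraries, with a median log2 change of -1.0, and 9 were called lower. These included Ank3 (ankyrin G, log2 change -0.97 ± 0.23 (SE)), the sodium channel partners Fgf12 (-2.18 ± 0.45 (SE)) and Fgf13 (-1.61 ± 0.41 (SE)), and the calmodulin genes Calm2 and Calm3. The axonal level of Ank3 was 25.5 to 34.9 FPKM, against 64.9 to 103 FPKM.

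Neuronal markers had the same sign. All 6 markers of other neurons were below 0, with a median log2 change of -1.36, and 4 were called lower. Their summed level was 145 to 176 FPKM in somatodendritic and 29.4 to 72.2 FPKM in axonal control libraries. Of the other lists, 6 of 6 oligodendrocyte and Schwann cell markers, 3 of 3 microglial markers and 5 of 8 astroglial and progenitor markers tested were below 0. Single markers had the opposite sign, with Vim at 365 to 528 FPKM in axonal and 109.6 to 222 FPKM in somatodendritic control libraries, Nes, a progenitor gene, at 64.8 to 95.7 and 4.95 to 17.8 FPKM and Col1a1, a fibroblast gene, at 11.9 to 36.5 and 0.765 to 7.45 FPKM, all 3 called higher in axons. Of 6 fibroblast and meningeal markers 2 reached the filter, and the sum of the 6 was 11.9 to 47.9 FPKM in axonal and 1.94 to 12.5 FPKM in somatodendritic control libraries. Of 4 nuclear RNAs tested, 4 were below 0, with a median log2 change of -0.56, and 1 was called lower. Among them, Malat1 was at 312 to 489 FPKM in axonal and 588 to 867 FPKM in somatodendritic control libraries. The part of these markers and nuclear RNAs in the lower level of channel genes was not tested.

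Channel genes are long, with a median span of 97.3 kb over those tested against 25.8 kb over all coding genes tested. Of the 74 tested, 36 spanned 100 kb or more, and their median log2 change of -0.74 in control axons was close to that of the shorter ones, -0.83. All coding genes of that length had a median of -0.24.

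In knockdown cultures the same comparison gave no call, but at least 1 in 6 of 11 alternatives other than leaving out 1 replicate. Among 78 channel genes tested in 6 axonal against 6 somatodendritic libraries, limma called 0, compared with 0.856% higher and 0.421% lower of 14021 genes. At an unadjusted p under 0.05, 17 were lower and 0 higher in axons, against 8.73% and 7.86%. The median log2 change was -0.68 for channel genes and -0.07 for all genes. Without knockdown replicates 3 and 4 the median was -0.85, 0 were called and 18 were lower at an unadjusted p under 0.05, while without replicate 3 alone 1 was called.

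The lowest adjusted p was that of Kcnip1, at 10.9 to 31.3 (median 18.1) FPKM in somatodendritic knockdown libraries and 4.85, 5.001, 15.3, 0, 0 and 1.12 FPKM in axonal knockdown libraries 1 to 6 (log2 change -2.45 ± 0.63 (SE), adjusted p = 0.0651). Axonal library 3 was the highest of the axonal ones. For Scn2a1 the log2 change was -0.77 ± 0.38 (SE) (adjusted p = 0.316), and for Kcnk9 it was -2.29 ± 0.72 (SE) (adjusted p = 0.119).

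Markers were compared in the same 12 knockdown libraries. All 6 markers of other neurons were below 0 in axons, with a median log2 change of -1.11 and 0 called. Of 6 oligodendrocyte and Schwann cell markers 6 were below 0, of 3 microglial markers 2, and of 8 astroglial and progenitor markers 6, with Vim called higher (log2 change 1.88 ± 0.39 (SE), adjusted p = 0.032). The 4 fibroblast and meningeal markers tested were above 0, 3 of them at an unadjusted p under 0.05, and Col1a1 was called higher (3.41 ± 0.61 (SE), adjusted p = 0.0185). Of 4 nuclear RNAs 2 were above and 2 below 0, and Malat1 was called higher in axons (1.3 ± 0.23 (SE), adjusted p = 0.0177). The part of these markers in the channel gene values was not tested.

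The second question was which channel RNAs differ with the loss of Tdp-43 in the somatodendritic compartment. Among 84 channel genes tested, limma called 0, compared with 0.218% higher and 0.756% lower of 13762 genes. At an unadjusted p under 0.05, 4 were higher and 5 lower in knockdown, against 4.59% and 9.22%. The difference from these shares was not tested, and the total of 9 became 4 to 9 when 1 library was left out. The groups did not overlap in 1 gene that was higher and 2 that were lower, against 1.9% and 3.6% of all genes. The median log2 change was -0.14, and -0.13 over all genes tested.

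After scaling, Cacna1c was the only channel gene tested with every knockdown library above every control library. It was at 6.7, 4.54, 6.12 and 7.83 FPKM in somatodendritic control libraries 1 to 4, against 10.9, 11.6, 16.9, 17.7, 11.6 and 15.4 FPKM in knockdown libraries 1 to 6. The scaled knockdown mean was 194% of control (log2 change 0.85 ± 0.27 (SE), unadjusted p = 0.00792 and adjusted p = 0.164 in limma). The change kept its direction and an unadjusted p under 0.05 in 19 of 20 alternatives, the exception being the fit of all 20 libraries. In axons, Cacna1c was at 3.39, 3.71, 2.19 and 3.14 FPKM in control and 17.8, 5.77, 10.3, 15.2, 1.78 and 7.1 FPKM in knockdown libraries (log2 change 0.71 ± 0.57 (SE), adjusted p = 0.757).

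For Scn2a1, every somatodendritic knockdown library was below every control library after scaling. It was at 20.9, 17.5, 23.7, 23.3, 20.2 and 12.2 FPKM in knockdown libraries 1 to 6, against 39.5, 29.1, 25.9 and 22.3 FPKM in control libraries, so that as deposited libraries 3 and 4 lay above control library 4. The scaled mean was 57.4% of control (log2 change -0.76 ± 0.23 (SE), unadjusted p = 0.0066 and adjusted p = 0.151 in limma). All 20 alternatives kept the direction and an unadjusted p under 0.05. The other 4 sodium channel pore genes tested had log2 changes between -0.70 and -0.13, and none had an unadjusted p under 0.05. Of 8 genes of the sodium class, pores and beta subunits together, 7 were below and 1 above 0, with 1 lower and 1 higher at an unadjusted p under 0.05. Of all genes tested, 59.3% were below 0.

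Of the 4 channel genes higher at an unadjusted p under 0.05, Cacnb2 and Cacng7 are given beside Cacna1c, both chosen after their values were seen. Cacnb2, a beta subunit of the same channels as Cacna1c, was at 5.16 to 11.6 against 2.8 to 5.76 FPKM, and Cacng7 at 63.3 to 91.5 against 44 to 67.3 FPKM. Both lost the unadjusted threshold in most alternatives, 13 and 12 of 20.

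On the lower side, Cacna2d2 was at 19, 14.6, 35, 41.6, 29.9 and 24.1 FPKM in somatodendritic knockdown libraries against 30.4, 54.8, 53 and 51.5 FPKM in control libraries, in which library 1 was low (log2 change -1.02 ± 0.29 (SE), adjusted p = 0.121). Kcnd1, a Kv4 pore gene, was at 3.64, 0.942, 0.45, 1.88, 0 and 0 against 3.14, 2.14, 5.75 and 7.96 FPKM (log2 change -1.66 ± 0.52 (SE), adjusted p = 0.161), and kept its unadjusted p in all 19 alternatives. Its somatodendritic control values had 0.442 to 3.12 implied fragments, a lower limit where a gene has several isoforms. Kcnip3 was at 0 to 5.9 against 3.12 to 9.52 FPKM and the BK partner Kcnmb2 at 0 to 2.09 against 1.07 to 6.1 FPKM, each with knockdown library 6 listed at 0. They lost the unadjusted threshold in 14 and 6 of 19 alternatives. Kcna1, an axonal Kv1 pore gene, had no overlap, at 0.604 to 1.07 against 1.43 to 2.47 FPKM, with an unadjusted p of 0.0675 in limma.

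**Figure D4:**
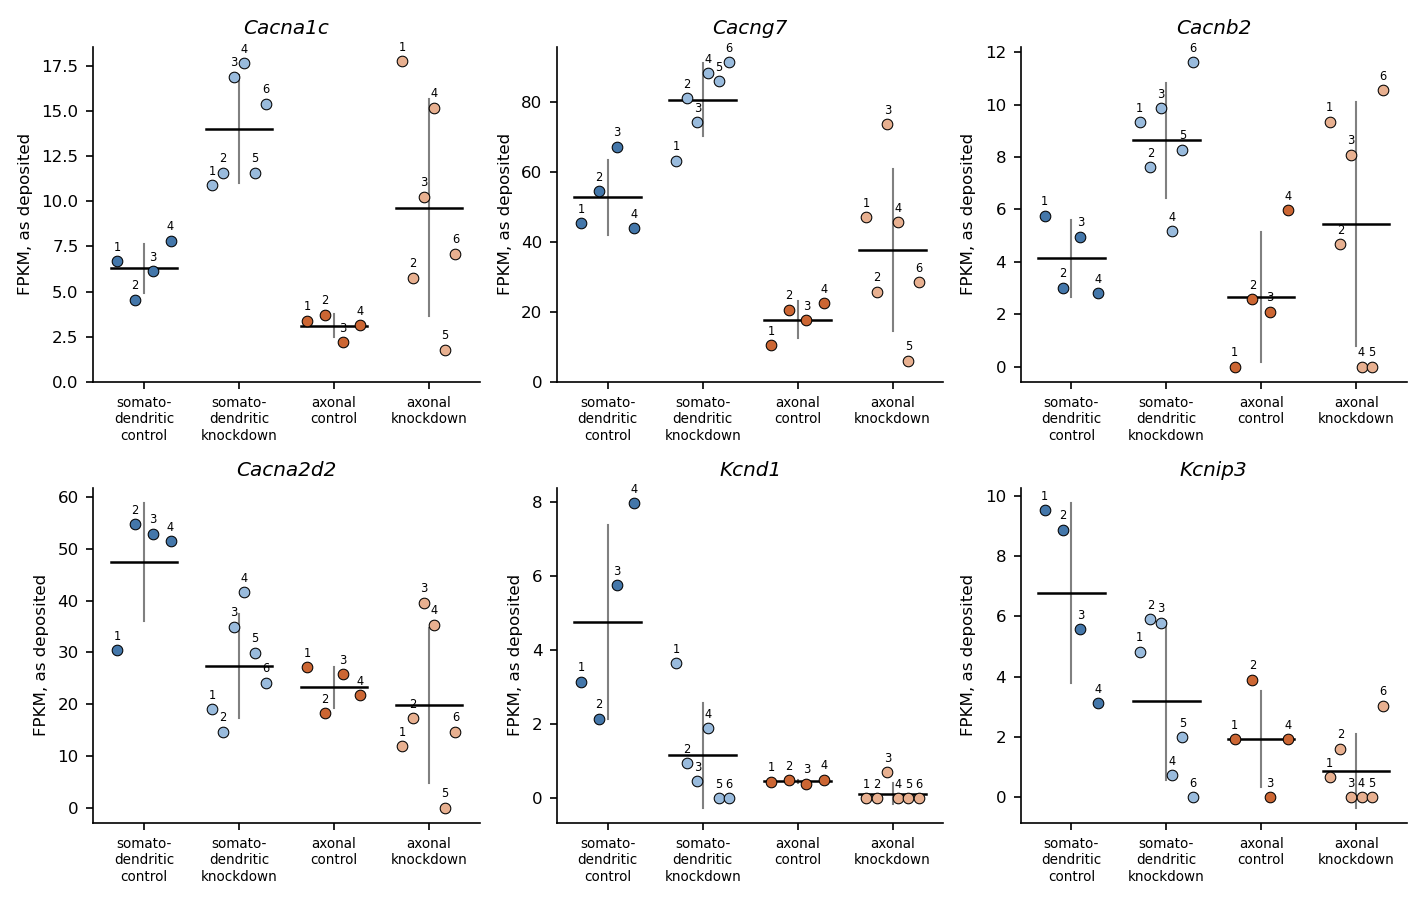
FPKM as deposited of Cacna1c, Cacng7, Cacnb2, Cacna2d2, Kcnd1 and Kcnip3 in every library, with library numbers, group means (horizontal lines) and 1 SD (vertical lines). In the somatodendritic compartment the 6 knockdown values of Cacna1c, 10.9 to 17.7, lie above the 4 control values, 4.54 to 7.83.

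Kcnk9 and Cacna1b, abundant in both compartments, did not differ beyond the spread of somatodendritic libraries. Kcnk9 was at 47.4 to 98.7 (median 77.2) FPKM in knockdown and 52.5 to 67.6 FPKM in control libraries (log2 change 0.11 ± 0.19 (SE), adjusted p = 0.857). Among calcium channel pores, Cacna1b was at 19.7 to 52.5 (median 35.1) FPKM in knockdown and 17.4 to 32.8 FPKM in control libraries (log2 change 0.35 ± 0.27 (SE), adjusted p = 0.616).

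Other lists were measured in the same libraries. Of 31 partner genes tested, 0 were called, 3 were higher and 3 lower at an unadjusted p under 0.05 in limma. Of 6 markers of other neurons, 4 were below 0 and 1 was called lower, with 3 lower and 1 higher at an unadjusted p under 0.05 in limma, and their sum was 109 to 169 FPKM in knockdown and 145 to 176 FPKM in control libraries. Gad2, an enzyme of GABA synthesis, fell in knockdown (log2 change -1.26 ± 0.24 (SE), adjusted p = 0.0282), and Slc17a6 had a log2 change of -0.98 ± 0.30 (SE), without a call. Pax2, a gene of inhibitory interneurons, had the opposite sign without overlap, at 22 to 35 FPKM in knockdown and 14 to 19 FPKM in control libraries (log2 change 0.47 ± 0.21 (SE), adjusted p = 0.337). Of 8 astroglial and progenitor markers, 5 were below 0 and 0 were called, with 2 lower, among them Fabp7 (-1.14 ± 0.26 (SE)), and 1 higher, Gfap (0.92 ± 0.27 (SE)), at an unadjusted p under 0.05 in limma. Their part in the values of Scn2a1 and Cacna1c was not tested.

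In axons, limma called 0 of 70 channel genes tested between 6 knockdown and 4 control libraries, compared with 0.0143% higher and 0.387% lower of 13958 genes. At an unadjusted p under 0.05, 0 were higher and 2 lower, against 2.14% and 6.46%. The median log2 change was 0.07 over channel genes and -0.17 over all genes. Without axonal knockdown libraries 3 and 4 the medians were -0.29 and -0.20, so that the position of the channel genes against all genes reversed, and 5 genes, all lower, had an unadjusted p under 0.05. With FPKM as deposited the medians were 0.45 and 0.23, and 4 genes, 3 of them higher, had an unadjusted p under 0.05. Without the library labelled axonal knockdown 1, in which Tardbp was not below control, limma called 0, and 4 had an unadjusted p under 0.05.

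Of 7 sodium channel genes tested in axons, 4 were above and 3 below 0, and 1 was lower at an unadjusted p under 0.05. Kcne1l, 1 of the 2 channel genes with an unadjusted limma p under 0.05 and not the one with the lower adjusted p, was at 8.26, 0, 2.37, 0, 0 and 26.8 FPKM in knockdown and 46.3, 31.1, 1.33 and 8.48 FPKM in control axons (log2 change -2.51 ± 1.02 (SE), adjusted p = 0.488). Both groups spread from near 0 to over 20 FPKM. The p was lost in 8 of 21 alternatives.

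Calcium channel pore genes had the highest subgroup median in knockdown axons next to the inward rectifiers, 0.69 over 8 genes, of which 7 were above 0 and 0 had an unadjusted p under 0.05. Without libraries 3 and 4 their median was 0.46, with 6 of 7 above 0. With all libraries, 58.7% of all genes tested were below 0. Cacna1b was at 14.7, 66.4, 32.3, 59.4, 113 and 24.3 FPKM in knockdown libraries 1 to 6 and 19, 3.2, 10.04 and 33 FPKM in control libraries (log2 change 1.2 ± 0.66 (SE), adjusted p = 0.654). The highest value was that of library 5, the shallowest. Cacna1a was at 14.1, 32.4, 46.7, 22.6, 59.8 and 30.4 and 14.7, 2.6, 14.1 and 25.5 FPKM (log2 change 0.90 ± 0.57 (SE), adjusted p = 0.717).

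Abundant sodium and potassium channel genes also spread widely among the axonal knockdown libraries. Scn8a was at 4.65, 4.65, 14.8, 17.9, 9.87 and 7.91 FPKM in axonal knockdown libraries 1 to 6 and 2.26, 3.84, 4.45 and 4.38 FPKM in control libraries (log2 change 0.65 ± 0.53 (SE), adjusted p = 0.76). Kcnc1 was at 7.9, 10.03, 13.9, 30.5, 25.7 and 17 and 5.73, 3.08, 10.03 and 2.61 FPKM (log2 change 1.09 ± 0.55 (SE), adjusted p = 0.623). Kcnk9 was at 10.5, 21.7, 68.1, 32.6, 0 and 6.51 FPKM in knockdown axons, where library 3 reached the somatodendritic range.

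Levels of nuclear RNA were compared between the same axonal groups. Malat1, which is retained in the nucleus, was at 1041, 1144, 1799.5, 1529.7, 1233 and 1596 FPKM in axonal knockdown and 352, 312, 489 and 376 FPKM in axonal control libraries, without overlap (log2 change 1.33 ± 0.29 (SE), adjusted p = 0.0739 in limma). Somatodendritic control libraries held 588 to 867 FPKM. Of 4 nuclear RNAs tested, 4 were above 0 and 0 were called, and 1 had an unadjusted p under 0.05 in limma. Their part in the axonal values of channel genes was not tested. The 6 markers of other neurons summed to 87.1, 66.3, 169, 168, 3.46 and 37.3 FPKM in axonal knockdown libraries 1 to 6 and to 29.4 to 72.2 FPKM in axonal control libraries, with libraries 3 and 4 the highest.

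**Figure D5:**
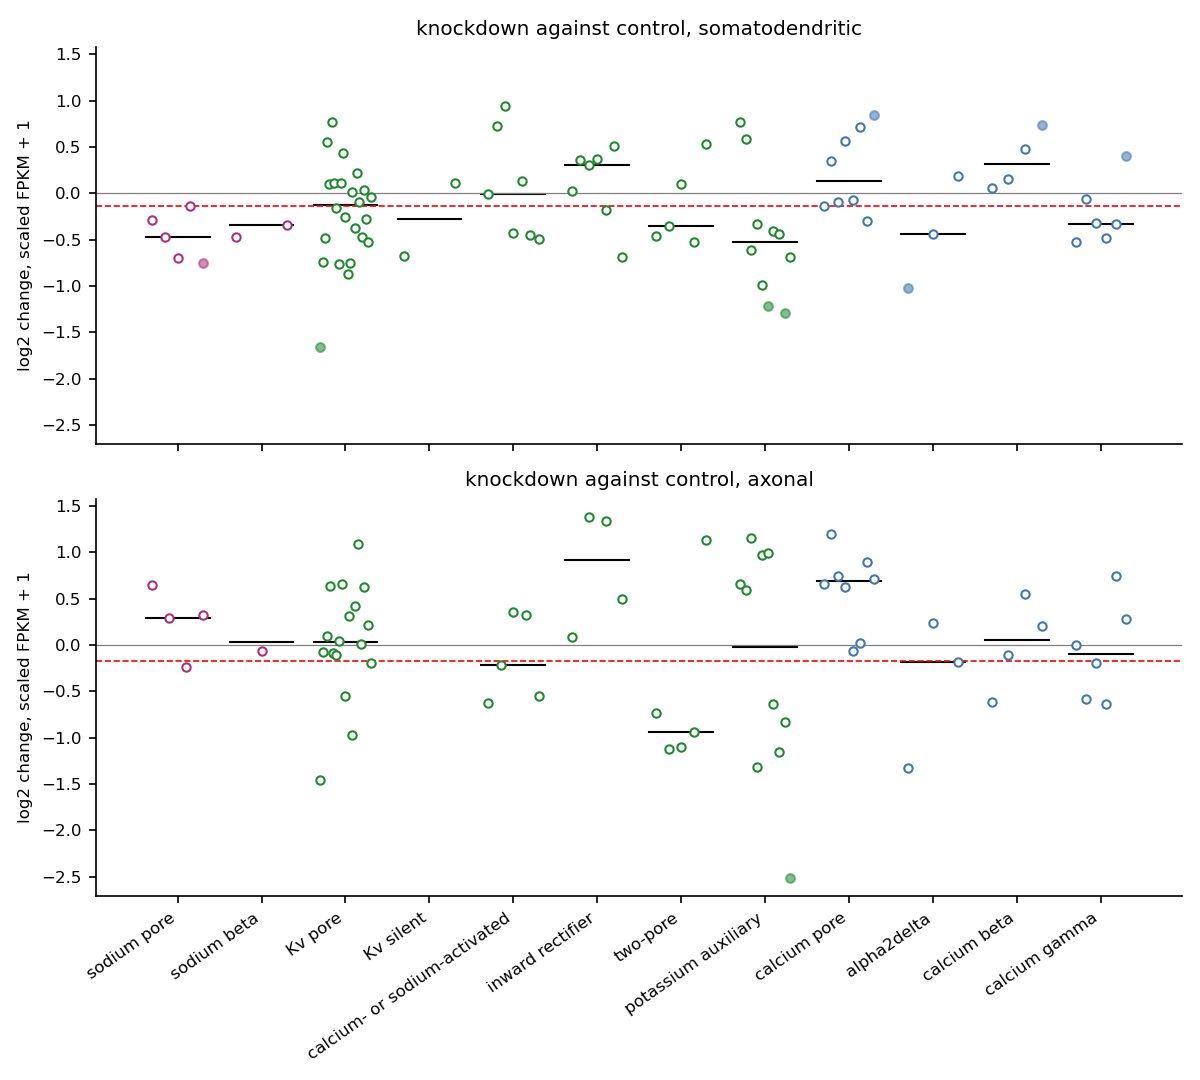
Log2 change of each tested channel gene between knockdown and control libraries in the somatodendritic (top) and axonal (bottom) compartment, by subgroup. Filled circles mark an unadjusted p under 0.05 in limma and open circles the rest, and genes that are not reported have no point; black lines are subgroup medians and dashed lines the medians of all genes tested, -0.13 and -0.17. No channel gene had an adjusted p under 0.05 in either compartment.

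Whether the knockdown change differed between compartments was tested as an interaction over all 20 libraries. Here limma called 0 of 78 channel genes tested, compared with 0% higher and 0.0711% lower of 14062 genes. At an unadjusted p under 0.05, 2 had a difference above 0 and 1 below 0, against 2.75% and 2.86%. Of 8 sodium channel genes, 1 was above and 1 below 0 at this threshold. The differences above 0, neither of which had the lowest adjusted p, were those of Scn2a1, with an axonal minus somatodendritic difference of 1.05 ± 0.50 (SE) in log2 change (adjusted p = 0.886), and Kcnmb2 with 2.19 ± 0.86 (SE) (adjusted p = 0.839). Without knockdown replicates 3 and 4 limma called 0 of 75, 0 were above 0 and 2 below 0 at an unadjusted p under 0.05, and the median over channel genes was -0.17 against 0.06 with them. The differences of Scn2a1 and Kcnmb2 were then 0.92 and 1.75 (unadjusted p = 0.0935 and 0.0651 in limma).

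In the somatodendritic compartment 12 channel genes with a TG run of at least 6 units were tested. Of these, 6 were above and 6 below 0 in knockdown. Their median log2 change was -0.04 against -0.15 for the other channel genes, a difference that was not tested. Over all coding genes tested the medians were -0.01 with and -0.11 without a run. In axons the 13 channel genes with a run had a median of 0.65, with 8 above 0, against 0.02 for those without, and over all coding genes the medians were -0.06 and -0.17. Without axonal knockdown libraries 3 and 4 the medians of the channel genes were 0.31 and -0.31.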

How the data were processed

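RNA-seq of 20 libraries was analysed. Per the labels and the study's methods, the authors amplified total RNA of each compartment, checked reads with FastQC 0.10.1, and computed FPKM with a 95% interval, 1 library at a time, with Cufflinks 2.2.1 on GRCm38. The deposited FPKM were used, and the annotation release is not given in the sources used here. Values up to 0.001 FPKM are called listed at 0. Implied fragments are the square of FPKM over its SD, the interval being read as 2 SDs on each side, and relative depth was taken over 680 genes with over 3 implied fragments in every library. These do not hold the spread between libraries, and implied fragments are a lower limit where a gene has several isoforms.

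For each comparison the FPKM were scaled between libraries (median of ratios, from genes that reached 1 FPKM in every library of the comparison), set to log2(scaled FPKM + 1) and filtered at a mean of 1 FPKM. The test was limma 3.58.1 (lmFit, eBayes with trend, two-sided) in R 4.3.3, and p-values were adjusted by Benjamini-Hochberg across every gene that passed the filter. The limma step was tested on simulated data. Figures were drawn with matplotlib 3.10.9 and tables with pandas 2.3.3 and numpy 2.4.6 (Python 3.11.15). GENCODE M21 gave positions for 134 of the 136 channel genes. Named genes are the 5 sodium, 8 potassium and 8 calcium channel genes highest in control libraries, up to 5 called rises and falls per comparison, those at an unadjusted p under 0.05 without overlap under knockdown, and Tardbp. Some genes under this rule are not reported here. The channel genes and lists were chosen with earlier results of these data known. Alternatives were FPKM as deposited, quantile normalization, other pseudocounts and filters, a replicate block, array weights, 1 fit of all 20 libraries, and leaving out each replicate. Fits without libraries of relative depth under 0.5 and without knockdown replicates 3 and 4 were chosen after seeing the data.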

Additional observations from a re-analysis of the deposited data

Results flagged for a closer look

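In 10 of 124 groups of libraries examined, 31 measures in 4 groups each, 1 library lay apart from the rest of its group by Dixon's criterion, where chance flags about 1 in 20 groups. Axonal knockdown library 3 stood out for Scn2a1 at 25.3 FPKM, against 4.59 to 11.7 FPKM in the others, for Kcnip1 at 15.3 FPKM, against 0 to 5.001 FPKM in the others, and for Kcnd1 at 0.692 FPKM, and listed at 0 in the others. Axonal knockdown library 6 stood out for Kcne1l at 26.8 FPKM, against 0 to 8.26 FPKM in the others, and for Kcnj10 at 31.6 FPKM, against 0 to 8.91 FPKM in the others.

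Axonal control library 4 was high for Kcnd2 at 11.7 FPKM, against 2.24 to 2.79 FPKM in the others, and for the sum of the calcium channel genes at 214 FPKM, against 129 to 136 FPKM in the others. Axonal control library 1 was the only one of its group above 0 for Kcnip4, at 1.09 FPKM, and for Kcnmb2, at 0.886 FPKM. Somatodendritic control library 1 was low for Cacna2d2 at 30.4 FPKM, against 51.5 to 54.8 FPKM in the others. The causes were not tested.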

How the results depend on the processing

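All 19 log2 changes reported here and tested again (8 called between the compartments of control cultures and 11 at an unadjusted p under 0.05 for knockdown or for the difference between compartments) kept their direction in every alternative that could be fitted, while 118 of 327 refits missed the threshold. The called channel genes between the compartments of control cultures numbered 9, and 25 with FPKM as deposited, 5 with a pseudocount of 0.1, 2 in the fit of all 20 libraries and 0 to 9 when 1 replicate was left out, with fewer samples in each such fit. In knockdown cultures, with 0 called, 1 was called with FPKM as deposited, with quantile normalization and without libraries of relative depth under 0.5, 2 with a pseudocount of 5 and with array weights, 4 in the fit of all 20 libraries, and 0 to 1 when 1 replicate was left out. For knockdown in axons, 1 was called in the fit of all 20 libraries.

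At an unadjusted p under 0.05, the somatodendritic count of 9 was 2 in the fit of all 20 libraries and 4 to 9 when 1 library was left out, lowest without control replicate 2. The axonal count of 2 was 4 with FPKM as deposited and with no filter, 6 with array weights, 10 in the fit of all 20 libraries, 5 without knockdown replicates 3 and 4, and 1 to 6 when 1 library was left out, where control replicates 1, 2 and 3 and knockdown replicates 1 and 5 each moved it. The causes were not tested. With FPKM as deposited, the median of all genes tested moved from -0.06 to -0.48 between control compartments.

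Same-numbered libraries did not deviate together (r between -0.063 and 0.076 for the compartments of 1 condition, and between -0.054 and 0.113 for control and knockdown), so that numbers were not taken as pairs. With the replicate number as a block, 4 channel genes were called between control compartments and 14 had an unadjusted p under 0.05 for somatodendritic knockdown. The block left the other counts within 1.5 times.

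Depth limits these results. The median implied fragments, a lower limit where a gene has several isoforms, were under 10 for most channel genes. The exceptions were 25 genes in somatodendritic control and 3 in axonal control libraries. A p that missed a threshold does not show that a gene was unchanged.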

Other observations

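Genes of the hyperpolarisation-activated and leak cation channels, which share the control of resting excitability with the channels above but carry other symbols, were present in the same libraries. Hcn2, a pacemaker channel gene, was at 14.5, 12.1, 5.39 and 10.9 FPKM in somatodendritic and 1.49, 1.63, 3.32 and 1.69 FPKM in axonal control libraries (log2 change -1.49 ± 0.42 (SE), adjusted p = 0.0566 in limma). Fam155a, a partner of the sodium leak channel Nalcn, was lower in axons, at 2.93, 0.802, 0.653 and 1.66 against 14.8, 13.7, 14.1 and 12.2 FPKM (log2 change -2.23 ± 0.40 (SE), adjusted p = 0.00922). Under knockdown it was at 3.78 to 12.6 FPKM in the somatodendritic compartment (log2 change -0.99 ± 0.32 (SE), adjusted p = 0.17).

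The fibroblast growth factor homologous factors bind the cytosolic tail of sodium channels. In the somatodendritic compartment the log2 changes of the 4 members had both signs, and a difference between members was not tested. Fgf12 was at 17.6, 18.5, 18.1 and 13.1 FPKM in somatodendritic control and 8.6, 13, 3.1, 9.08, 14.2 and 9.42 FPKM in somatodendritic knockdown libraries (log2 change -1.05 ± 0.35 (SE), unadjusted p = 0.01 and adjusted p = 0.185 in limma). Fgf14 was at 3.55 to 7.13 FPKM in control and 0 to 6.26 FPKM in knockdown libraries (log2 change -1.15 ± 0.51 (SE), adjusted p = 0.337). Fgf11 was at 3.73, 2.68, 4.93 and 6.65 FPKM in control and 15.6, 12.8, 20.6, 16.6, 10.9 and 0 FPKM in knockdown libraries, 5 of which were above every control library and 1 listed at 0 (log2 change 0.74 ± 0.72 (SE), adjusted p = 0.706). Fgf13 was at 31 to 47.3 and 28.2 to 75.4 FPKM (log2 change 0.02 ± 0.26 (SE), adjusted p = 0.982). Ank3, the anchor of sodium channels, had the opposite sign to Fgf12, at 64.9, 87.4, 103 and 83.3 FPKM in control and 113, 108, 158, 159.8, 134 and 178 FPKM in knockdown libraries (log2 change 0.52 ± 0.19 (SE), adjusted p = 0.246). Of 32 partner genes tested in axons, 1 was higher and 0 lower in knockdown at an unadjusted p under 0.05 in limma. The shares of all genes were 2.14% and 6.46%. That gene was Ank2, at 43, 32.8, 38.9 and 56.8 FPKM in control and 77.7, 129, 162, 193, 165 and 190.1 FPKM in knockdown libraries (log2 change 1.26 ± 0.37 (SE), adjusted p = 0.26). After scaling its groups overlapped. None of these knockdown changes passed the adjusted threshold.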
